A study of Mus musculus with 43 samples.

Results

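Of 14815 CCCGGG sites on chromosomes 1 to 19 that were read well enough to compare, 326 sites (2.20%) had higher methylation in polypoid dysplasia than in non-dysplastic colonic epithelium on the folic acid (FA) deficient diet and also on the high FA diet. They were chosen on the values themselves: a site had at least 20 reads in at least 4 libraries of each of the 4 groups of the second cohort, and the mean of its adjusted methylation percent was at least 5 percentage points higher in polyps than in epithelium on 0 mg and on 8 mg FA/kg chow. The polyp minus epithelium differences in that cohort are therefore a description, and no test is given for them. In all, 173449 sites were listed. Sites that fell by 5 points or more on both diets numbered 1161 (7.84% of the comparable sites) and serve below as the main contrast.

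All mice were Swiss Webster mice injected with the carcinogen azoxymethane (AOM) and given cycles of dextran sulfate sodium (DSS) in drinking water, which causes colitis. All ate 2 mg FA/kg chow at first, were randomized after the first DSS cycle to 0, 2 or 8 mg FA/kg for 16 weeks, and were killed at 27 weeks of age. Colon cells were laser-microdissected from fixed, paraffin-embedded tissue and their DNA was analyzed by DREAM, a sequencing assay described next. The first cohort held non-dysplastic epithelium (ND) of mice on 0 mg (0ND, 5 libraries), 2 mg (2ND, 7) and 8 mg FA (8ND, 6). The second cohort held epithelium and polyps (P) of 6 mice on 0 mg (0ND and 0P, 6 libraries each) and of 6 mice on 8 mg (8ND, 6 libraries, and 8P, 7 lesions, 2 of them from mouse 1856). Libraries are named here by mouse number. Every mouse had AOM and DSS, so none of these libraries shows the colon without the carcinogen, and 8 mice gave epithelium to both cohorts. The labels call all ND samples epithelial cells, while the study's methods also name epithelium plus lamina propria for some samples without saying which. Microdissected tissue is a mixture of cells, so that a change in the share of a cell type and a change within cells cannot be told apart.

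DNA methylation is a methyl group on the cytosine of a CpG. In normal tissue most CpGs outside CpG islands are methylated and most islands are not, while colorectal tumors commonly lose methylation across the genome and gain it at a subset of sites. Folates, which FA provides, carry the one-carbon units from which the methyl donor of this reaction is made. In DREAM, SmaI cuts CCCGGG only when the CpG is unmethylated, XmaI then cuts the sites that remain, and the read ends show which enzyme cut.

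The libraries of the second cohort held 1774213 to 13960168 reads at listed sites, those of the first 1488920 to 16923453. At the gaining sites the median depth in a library was 48 to 428.5 reads in the second cohort, and it was higher in the 8P libraries (122 to 428.5) than in the 8ND libraries other than that of mouse 1856 (48 to 101). Adjusted percents are the authors' values after correction with spiked standards, which multiplied the odds of methylation in each library by 1 factor (0.992 to 1.97 in the second cohort and 1.24 to 4.04 in the first). The 0P library of mouse 1805 had the largest share of reads on standards (77.4%) and covered 240 of the 326 gaining sites. Without it 324 sites gained on both diets, 268 of them among the 326.

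One epithelium library stood apart. The library labelled 8ND 1856N covered 48630 sites with 20 reads or more, while the other 8ND libraries covered 15893 to 21585 and the 8P libraries 47798 to 54855. Over the 134 gaining sites read in all 25 libraries of the second cohort its mean methylation was 37.1%, above the other 8ND libraries (21.5 to 29.5%) and within the range of the 8P lesions (35.4 to 43.3%). On a scale where 0 is the mean of the other 8ND libraries and 1 the 8P mean, its median position over the 308 gaining sites that could be placed was 0.879, against -0.375 to 0.122 in the other 8ND libraries. Over 1075 falling sites its median position was lower, at 0.478, against -0.459 to 0.231 in the other 8ND libraries. This library was above every other 8ND library at 147 of 324 gaining sites (45.4%) and at 14.0% of all comparable sites. At the 301 gaining sites read in all 4 libraries of that mouse, 1856N had 41.4%, the lesions averaged 46.4%, and the epithelium of mouse 1856 in the first cohort had 35.0%. The sample is called the library labelled 1856N below, and the counts that rest most on it are given with and without it. Without it, 12970 sites were comparable and 314 gained on both diets, 255 of them among the 326. Of the 268 gaining sites that still had 4 other 8ND libraries, 255 (95.1%) stayed at 5 points or more on 8 mg, with a median gain of 12.8 points in place of 10.5.

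**Figure D1:**
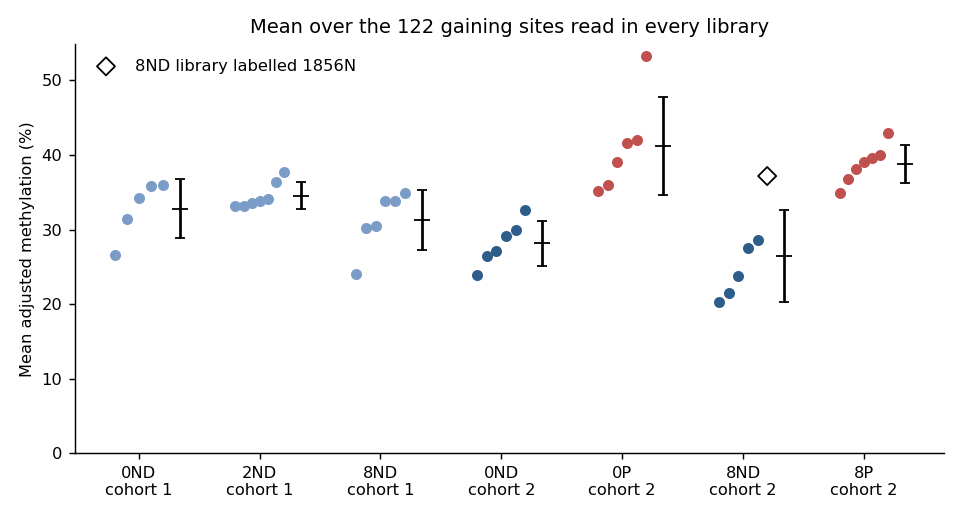
Mean adjusted methylation (%) over the 122 gaining sites with at least 20 reads in every one of the 43 libraries. Each point is a library, the bars beside the points are group mean and SD, and the open diamond is the library labelled 1856N. The 13 polyp libraries lie between 34.9 and 53.2%, and the 11 other second-cohort epithelium libraries between 20.3 and 32.6%.

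At the gaining sites the median difference between polyps and epithelium was 11.6 points on 0 mg (5.005 to 81.2) and 10.8 points on 8 mg (5.018 to 71.2), while the medians over all comparable sites were 0 and 0.0243. The larger of both gains was on 0 mg at 168 of the 326 sites (51.5%). Averaged over the 326 sites, group means were 32.5% in 0ND and 46.4% in 0P, and 30.6% in 8ND and 43.7% in 8P. Most gains were modest: the smaller gain of both diets reached 10 points at 118 sites, 20 points at 15 sites and 30 points at 3 sites.

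On 0 mg 773 sites gained at least 5 points, and the 326 shared sites were 42.2% of them. On 8 mg 914 sites gained, and the shared sites were 35.7% of those. A further 97 sites gained on 0 mg and fell by 5 points or more on 8 mg, and 247 did the opposite. The sites that only just met the criterion had gains of 5.005 and 12.2 points on 0 and 8 mg (chromosome 18, position 58997622, mm9), 12.3 and 5.018 points (chromosome 17, position 28422969) and 9.15 and 5.05 points (chromosome 11, position 85731702). Those just outside had 27.9 and 4.99 points (chromosome 5, position 121161209), 4.96 and 8.95 points (chromosome 7, position 71647153) and 9.37 and 4.96 points (chromosome 19, position 41370927). The boundary thus fell among sites with similar values on both sides.

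**Figure D2:**
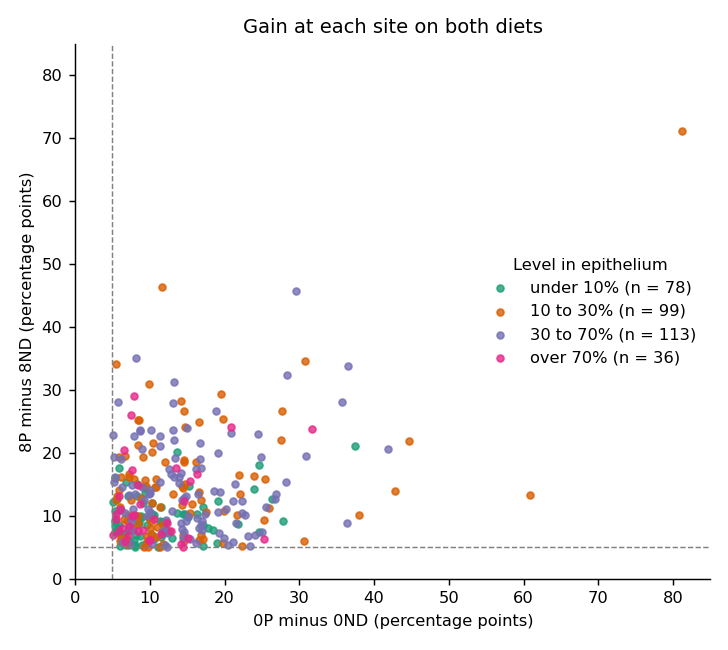
Polyp minus epithelium difference at each of the 326 gaining sites, in percentage points, on 0 mg FA (horizontal axis) and 8 mg FA (vertical axis). Each point is a site, colored by its mean level in second-cohort epithelium, and the dashed lines mark the 5-point criterion. One site lies far from the rest at 81.2 and 71.2 points.

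Because the same contrast chose the sites, the overlap of groups only describes them. Every 0P lesion was above every 0ND library at 13 of the 326 gaining sites (3.99%), beside 19 of the 14815 comparable sites (0.128%). Every 8P lesion was above every 8ND library at 11 gaining sites (3.37%), beside 52 comparable sites (0.351%). Without the library labelled 1856N these counts on 8 mg were 48 (14.7%) and 158 (1.07%).

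The site with the largest gain was nearly unmethylated in most epithelium and nearly fully methylated in most lesions. At chromosome 8, position 117229497 (mm9), the 6 0ND libraries had 3.29 to 11.9% (median 8.13%) and the 6 0P lesions 59.0 to 99.3% (median 97.2%). The 7 8P lesions had 88.6 to 99.5% (median 94.8%). In 8ND the 4 libraries of mice 1830, 1841, 1848 and 1858 had 9.71, 0, 5.46 and 7.67%, and the library labelled 1856N had 97.4%.

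All 13 lesions were far above the other epithelium at this position, with no overlap, and 1856N sat among the lesions. The epithelium of mouse 1856 in the first cohort had 3.95% there. The other first-cohort libraries were equally low, at 5.81, 6.61, 8.26, 11.5 and 0% in 0ND, 0 to 8.04% in 2ND (median 4.45%) and 3.41, 2.70, 4.54 and 7.64% in the other 8ND mice. The nearest comparable site, 193 bases away, started at 64.5% in 0ND and 62.3% in 8ND and was 22.3 and 9.02 points lower in polyps on 0 and 8 mg. Other listed sites around it were read in too few libraries to compare.

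**Figure D3:**
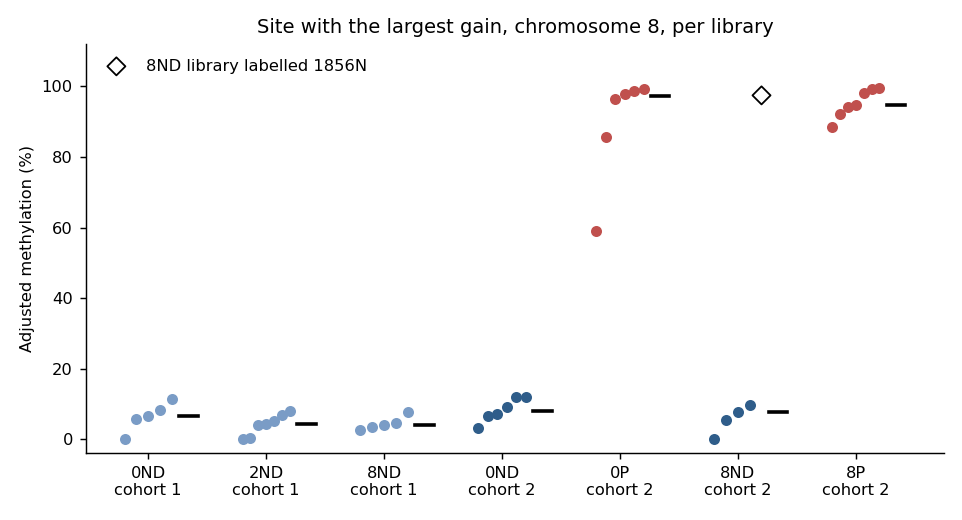
Adjusted methylation (%) in each library at chromosome 8, position 117229497 (mm9), with at least 20 reads, by group. Each point is a library, black bars are group medians, and the open diamond is the library labelled 1856N. Polyps lie between 59.0 and 99.5%, all other epithelium at 11.9% or lower.

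The next sites started at intermediate levels. At chromosome 1, position 103395901, 0ND had 28.8 to 62.4% (median 47.3%) and 0P 70.9 to 97.7% (median 79.6%). At the same site 8ND had 30.7 to 74.6% (median 46.0%), the highest value being 1856N, and 8P had 69.7 to 87.6% (median 79.6%). Lesions and epithelium did not overlap on 0 mg, and on 8 mg they did so only through 1856N. Its first-cohort levels averaged 55.4% ± 6.39 (SD, n = 5) in 0ND, 49.4% ± 5.89 (n = 7) in 2ND and 45.4% ± 7.99 (n = 6) in 8ND, all below the lowest lesion. A comparable site 179 bases away was 10.1 points lower in polyps on 0 mg and 6.93 points lower on 8 mg.

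At chromosome 2, position 166181508, 0ND had 8.91 to 68.1% (median 48.5%), and the 4 covered 0P lesions, of mice 1807, 1808, 1809 and 1820, had 54.4, 95.7, 86.2 and 59.7%. 8ND had 15.8 to 76.8% (median 24.0%) with 1856N the highest and 30.4% the highest of the others, and 8P had 61.0 to 96.5% (median 77.2%). The gains were 29.5 and 45.7 points, and 0P and 0ND overlapped. The site 234 bases away was 21.0 points lower in polyps on 0 mg and 0.972 points higher on 8 mg.

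Some sites ended at nearly full methylation in every lesion. At chromosome 6, position 108700282, 0ND had 40.5 to 81.7% (median 67.7%), 0P 93.8 to 100% (median 99.5%) and 8P 97.9 to 100% (median 99.3%). The 8ND libraries 1800, 1841 and 1848 had 66.0, 79.8 and 64.3%, and 1856N had 92.2%. At chromosome 18, position 58029600, the 4 covered 0P lesions had 96.4, 99.2, 100 and 100% and the 6 covered 8P lesions 97.0 to 100%. Epithelium at that site was widely spread, at 33.9 to 89.3% in 0ND and, in 8ND, at 48.6, 100, 31.0 and 75.3% in mice 1800, 1830, 1841 and 1858 and 99.5% in 1856N, so the range of 8ND reached that of the lesions.

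The remaining 5 of the 10 sites with the largest gains on both diets had polyp group means of 34.2 to 84.8%. Single lesions were fully methylated at chromosome 11, position 106190874 (0P lesion 1805, 100%), and chromosome 8, position 116490363 (0P lesions 1807 and 1839, 100%). Their gains were 30.7 and 34.6 points at chromosome 11, position 106190874, 28.3 and 32.4 points at chromosome 8, position 116490363, and 27.7 and 26.6 points at chromosome 6, position 32347115. They were 24.4 and 23.0 points at chromosome 2, position 167208486, and 27.5 and 22.0 points at chromosome 19, position 26919335. In this order, first-cohort 0ND averaged 60.4, 72.2, 41.2, 72.3 and 25.3%, beside 55.7, 84.8, 45.0, 79.3 and 37.7% in 0P. First-cohort 8ND averaged 45.7, 64.2, 19.1, 64.2 and 24.4%, beside 52.7, 78.5, 47.2, 70.9 and 34.2% in 8P. At chromosome 11, position 106190874, first-cohort 0ND was thus above 0P. At chromosome 19, position 26919335, 8P ran from 0 to 53.6% (median 36.9%), so that 1 lesion was unmethylated there. Of the 10 leading sites, 9 had another comparable site within 349 bases, and none of these neighbours met the gain criterion on both diets.

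Gaining sites were concentrated at intermediate starting levels. Their mean level in second-cohort epithelium was under 10% at 78 sites (23.9%), 10 to 30% at 99 (30.4%), 30 to 70% at 113 (34.7%) and over 70% at 36 (11.0%), with a median of 26.9% (0 to 92.5%). Chosen without the library labelled 1856N, the counts were 95, 94, 94 and 31 of 314 sites, with a median of 23.2%. Of all comparable sites, 74.4% were under 10%, 5.19% at 10 to 30%, 8.18% at 30 to 70% and 12.3% over 70%. The level limits what can be seen, since a site near 100% cannot gain 5 points and a site near 0% cannot fall by 5. Within a band, gaining sites were 0.708% of those under 10%, 12.9% at 10 to 30%, 9.32% at 30 to 70% and 1.98% over 70%.

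Sites that fell on both diets started higher, with 642 of 1161 over 70% and 4 under 10%. In the band of 30 to 70%, where a site could move either way, 424 sites fell and 113 gained on both diets, while in the band of 10 to 30% 91 fell and 99 gained. Median gains were largest in the band of 30 to 70%, at 14.1 points on 0 mg and 13.1 on 8 mg, and were 9.43 and 8.89 points under 10%. The 3 lowest starting sites were at chromosome 1, position 181789354, where both epithelium means were 0% and both polyp means 14.5% (0P) and 10.2% (8P), chromosome 11, position 71565022, and chromosome 1, position 167767918. The 3 highest, at chromosome 11, position 80470279, chromosome 6, position 40672559, and chromosome 4, position 74159822, had means of 97.3 to 99.8% in both polyp groups.

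**Figure D4:**
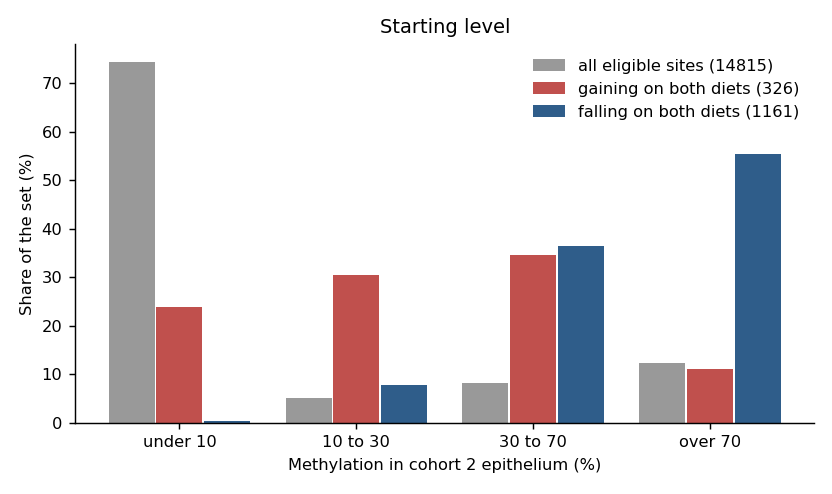
Share (%) of all 14815 comparable sites (grey), of the 326 sites gaining on both diets (red) and of the 1161 sites falling on both diets (blue) in each band of mean methylation in second-cohort epithelium. The red bars are highest at 10 to 30% and 30 to 70%, with 30.4 and 34.7% of gaining sites.

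CCCGGG sites crowd in CpG islands, so the number of listed sites close by is a rough measure of CpG density. Of the gaining sites, 54 (16.6%) had at least 3 other listed sites within 1000 bases, against 40.3% of all comparable and 5.34% of falling sites. Gaining sites also differed in starting level, and fewer of them started under 10%, where listed sites crowd. Under 10% the share was 39.7% in gaining and 51.2% in all comparable sites, at 10 to 30% it was 12.1 and 12.0%, and at 30 to 70% it was 7.08 and 6.19%. Within 500 bases the shares under 10% were 19.2 and 33.8%, and within 2000 bases they were 57.7 and 60.2%. Chosen without the library labelled 1856N, 55 of 314 gaining sites (17.5%) had at least 3 listed sites within 1000 bases. Gaining sites were on all 19 autosomes, from 1.05% of comparable sites on chromosome 9 to 3.67% on chromosome 12, with the most on chromosome 11 (33 sites).

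A run was taken as gaining sites at most 1000 bases apart with no other comparable site between them, and 53 of the 326 sites (16.3%) formed 26 runs, or 64 of 314 (20.4%) when the sites were chosen without the library labelled 1856N. Falling sites, which were more numerous and so had more chances to adjoin, had 413 of 1161 (35.6%) in 205 runs. One run had 3 sites, spanning 352 bases at chromosome 7, positions 137836258 to 137836610, with mean gains of 17.5 points on 0 mg and 12.7 on 8 mg from a mean start of 35.1%. The other 25 were pairs. By the mean over both sites of the smaller gain, the leading pairs were at chromosome 12, positions 81071270 and 81071384 (19.9 and 16.4 points from a mean start of 9.48%), and chromosome 2, positions 30707713 and 30707869 (20.0 and 14.7 points from 49.6%). At position 30707713 the smaller gain was -0.383 when only epithelium libraries with less than 8% of their reads on the 100 most-read sites were kept.

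The nearest comparable site lay 101 to 300 bases away for 201 gaining sites, and it gained on both diets in 42 of these (20.9%) and fell on both diets in 22 (10.9%). The median difference of these neighbours was 0.955 points on 0 mg and 1.93 on 8 mg. Over all comparable sites with a neighbour at this distance, the neighbour was a gaining site in 1.99% and fell on both diets in 9.35%. These neighbours started at a median of 0.179% and those of gaining sites at 22.1%, so the shares are not matched for level. For falling sites the neighbour also fell in 41.0%. At 1 to 100 bases, the nearest comparable site of 67 gaining sites gained on both diets in 8 (11.9%) and fell in 4 (5.97%). These shares were 2.03 and 1.46% over all comparable sites with a neighbour that close. The median difference of the neighbours of gaining sites there was 0.122 points on 0 mg and 2.07 on 8 mg. Neighbouring sites can be both ends of the same DNA fragment, so they are not independent measurements.

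The gain was spread over the lesions but was seldom present in all of them at a given site. In single lesions, 59.6 to 69.8% of the gaining sites covered were at least 5 points above the epithelium mean on 0 mg and 59.4 to 84.0% on 8 mg. The lowest share was in the 8P lesion of mouse 1800 and the highest in the lesion of mouse 1856 labelled 1856P2. The labels and the file names disagree on which lesion of mouse 1856 is which, so its lesions are told apart here by label only. With the epithelium mean taken without the library labelled 1856N, the shares on 8 mg were 66.2 to 87.7%. At the 218 gaining sites covered in all 13 lesions, the median site was at least 5 points above in 9 lesions and the lowest in 4. All 13 lesions were above at 11 sites (5.05%), at least 10 at 83 (38.1%) and at most 6 at 22 (10.1%). Without 1856N these were 18, 94 and 22 sites, with the same median of 9. Since the same lesions chose the sites, these shares describe how the gain was distributed and do not test it.

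Against the same mouse's epithelium, 50.2 to 81.2% of the gaining sites were at least 5 points higher in the lesions of mice other than 1856. In the lesions of mouse 1856 the share was 42.4 and 52.8%, measured against 1856N. Both lesions of mouse 1856 differed from each other by a median of 9.76 points, and 8P lesions of different mice by medians of 7.10 to 10.6 points. Lesions of the same mouse were thus no closer to each other at these sites than some lesions of different mice.

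**Figure D5:**
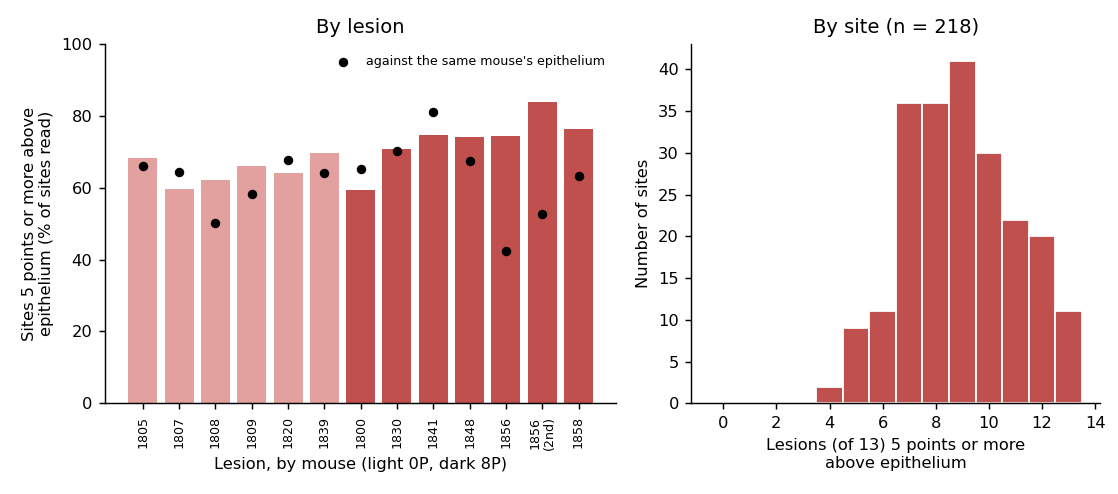
Left, share (%) of covered gaining sites at least 5 percentage points above the epithelium mean of the diet in each of 13 lesions (bars, light 0P and dark 8P), with black points for the share above the same mouse's epithelium. Right, number of the 218 sites covered in all lesions by how many lesions were at least 5 points above. Bars run from 59.4 to 84.0%, and the median site is above in 9 of 13 lesions.

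The median SD over libraries was 17.6 points in 0P and 9.52 in 8P, and 10.1 in 0ND and 14.0 in 8ND. Without 0P lesion 1805 the 0P median was 14.0, and without the library labelled 1856N that of 8ND was 11.1. The order was the same elsewhere, with 15.9 in 0P and 9.29 in 8P at falling sites and 15.8 and 9.45 at all comparable sites starting at 10 to 90%. The SD of 0P exceeded that of 0ND at 253 of 326 gaining sites (77.6%) and at 72.9% of those comparable sites. The SD of 8P exceeded that of 8ND at 108 (33.1%), or 149 (45.7%) without 1856N, and at 19.1% of those comparable sites. Values of exactly 100% made up 8.72% of those in 0P and 1.37% in 8P, and 29.2% in lesion 1805, which also had 20.8% of its values at 0%. The median depth at the gaining sites was 52.5 to 187.5 reads in 0P and 122 to 428.5 in 8P, and the part of depth in the spread was not tested.

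The libraries of the first cohort did not enter the choice of sites. It was asked whether their epithelial methylation at the gaining sites differed between diets. Sites with at least 20 reads in at least 4 libraries of each diet were tested, 17504 in all and 291 of the 326. The other 35 were not read deeply enough. A site was called by the study's criterion, a two-sided equal-variance test with unadjusted p under 0.05 and a difference over 5 points. No site passed a Benjamini-Hochberg adjusted p of 0.05 over all tested sites in any of the 3 comparisons by the equal-variance test or by limma, and the calls below rest on unadjusted p. The quasi-binomial model of the read counts gave 1 gaining site with an adjusted p under 0.05, in 8ND against 0ND, among 5 of all tested sites. Of the first-cohort mice, 3 of 5 on 0 mg and 5 of 6 on 8 mg also gave the second-cohort epithelium that the choice used. No mouse on 2 mg did. The cohorts are therefore not independent, and the 3 comparisons share libraries with one another. The choice favours sites that were low in second-cohort epithelium on 0 and 8 mg. Mice in both cohorts can carry such low values into 0ND and 8ND, but not into 2ND. The choice by itself therefore favours 0ND and 8ND below 2ND at gaining sites, and above it at falling sites. The part of the choice in the differences below was not tested.

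Between 8ND and 2ND nearly all calls at gaining sites were lower on 8 mg, the direction that the choice of sites favours. Of 291 sites, 28 were called (9.62%), beside 1.84% of all tested sites. Of these 28, 27 were lower and 1 higher in 8ND (9.28 and 0.344% of the 291), beside 0.994 and 0.846% of all tested sites. With raw percents 42 were called lower and 0 higher, beside 1.78% of all tested sites in either direction. The quasi-binomial model called 18 lower and 11 higher, beside 2.02% of all tested sites. In the band of 30 to 70% 13 of 99 gaining sites (13.1%) were called lower, beside 5.19% of all comparable sites of that level tested there, and at 10 to 30% 7 of 91 (7.69%), beside 3.95%. Called higher were 1 of 99 at 30 to 70%, beside 3.08%, and 0 of 91 at 10 to 30%, beside 3.95%. The median difference over the 291 sites was -2.42 points, with 208 sites lower in 8ND, against -0.579 points over comparable sites of 10 to 70% and +0.808 over falling sites. At an unadjusted p under 0.05 without the 5-point minimum there were 30 gaining sites by this test, beside 2.99% of all tested sites. By limma there were 32, beside 3.23%. Without 8ND library LC1844, the shallowest of all (1488920 reads on sites), 17 sites were called lower and 4 higher and the median was -1.65 points. Without 2ND library LC1814, 18 gaining sites were called, 16 of them lower. The share of all tested sites called without these libraries is not reported here, so these counts cannot be set against a background.

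At chromosome 5, position 36313638, a member of a pair 105 bases apart, the 6 8ND libraries had 6.96 to 25.7% (median 18.1%) and the 7 2ND libraries 32.1 to 64.7% (median 40.2%). The 0ND libraries had 41.3, 42.6, 33.5, 24.1 and 14.5%. 8ND was below 2ND with no overlap and by 25.1 points, with an exact permutation p of 0.00117, the smallest that these group sizes allow, and an adjusted p of 0.905 from the equal-variance fit over all sites. In the second cohort epithelium was at 29.8% (0ND) and 37.5% (8ND), so the low 8ND level of the first cohort was not seen there.

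At chromosome 2, position 167208486, one of the 10 leading sites, 8ND had 59.2 to 68.4% (median 64.3%) and 2ND 68.5 to 75.9% (median 72.6%). These ranges also did not overlap, and the difference of -8.39 points had an exact permutation p of 0.00117 and an adjusted p of 0.905. The 0ND values of 73.4, 72.6, 87.6, 59.5 and 68.3% spanned both groups. The other sites with the smallest p in this comparison were at chromosome 10, position 82467037 (-20.2 points), chromosome 17, position 46402845 (-11.8), and chromosome 2, position 27325971 (-16.6), all lower in 8ND.

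Between 8ND and 0ND 32 gaining sites were called, 11 higher and 21 lower in 8ND, beside 0.657% and 4.08% of all tested sites and 4.74% in either direction. The median over the 291 sites was -1.01 points, and -3.04 over comparable sites of 10 to 70%. The share lower was 3 of 91 at 10 to 30%, where 8.71% of all comparable sites were called lower, and 9 of 99 at 30 to 70%, where 22.1% were. The share higher was 3 of 91 (3.30%) at 10 to 30%, where 6.26% of all comparable sites were called higher. At 30 to 70% it was 4 of 99 (4.04%), beside 1.94%. With raw percents 4 were called higher and 15 lower, beside 3.40% of all tested sites in either direction. By unadjusted p alone there were 32 gaining sites, beside 5.78% of all tested sites, and 37 by limma, beside 6.19%. Without 0ND library 1807 there were 20 calls among 254 tested gaining sites and without 1809 21 among 256. The share of all tested sites called in these settings is not reported here.

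The site at chromosome 2, position 166181508, had 51.5, 56.2, 63.6, 59.4 and 48.1% in 0ND and 19 to 42.4% in 8ND (median 35.8%). The groups did not overlap, with a difference of -23.3 points, an exact permutation p of 0.00433, the smallest possible here, and an adjusted p of 0.327. In 2ND it had 28.9 to 53.1% (median 39.3%), which lay 16.3 points below 0ND. At chromosome 10, position 82467037, 0ND had 68.1, 63.2, 71.9, 64.8 and 47.0% and 8ND 16.9 to 43.4% (median 36.3%). This difference of -28.5 points had the same exact p and adjusted p.

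Between 2ND and 0ND 23 gaining sites were called, 12 higher and 11 lower in 2ND, beside 0.451 and 4.08% of all tested sites and 4.54% in either direction. At 10 to 30% 6 of 91 were called higher, beside 3.81% of all comparable sites of that level, and 2 of 91 lower, beside 5.31%. At 30 to 70% 5 of 99 were called higher, beside 1.67%, and 6 of 99 lower, beside 19.2%. The median difference over the 291 sites was +1.06 points, against -2.61 over comparable sites of 10 to 70% and -5.81 over falling sites, of which 90.1% were lower. It was -0.359 without 0ND library 1820, so its sign rested on that library. By unadjusted p alone there were 26 gaining sites, beside 6.17% of all tested sites, and 29 by limma, beside 6.52%. After centring of the libraries 16 were called higher and 9 lower, beside 4.12% of all tested sites in either direction. With raw percents 13 were called higher and 1 lower, beside 1.00%. Without 0ND library LC1810, 13 of 255 tested gaining sites were called, and the share of all tested sites in that setting is not reported here. At chromosome 12, position 30034334, 0ND had 65.3, 72.8, 70.8, 65.5 and 67.6% and 2ND 45.2 to 58.8% (median 46.0%), with no overlap, a difference of -18.9 points, an exact permutation p of 0.00253 and an adjusted p of 0.197. In 8ND this site had 45.2 to 75.2% (median 56.5%), overlapping both. At chromosome 1, position 153711298, 2ND was instead 14.5 points higher than 0ND (39.3% ± 6.42, n = 7, and 24.8% ± 6.20, n = 5, exact permutation p of 0.00758, adjusted p of 0.450).

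The same polyp libraries were also set beside first-cohort epithelium. This is a description and no independent check, since the polyp values chose the sites and most 0 and 8 mg mice of the first cohort also gave epithelium to the second. Of 291 sites, 128 (44.0%) were at least 5 points above on both diets, beside 1.33% of the comparable sites tested there (8.44% of those starting at 10 to 30% and 6.16% at 30 to 70%), and 221 (75.9%) were above by any amount on both. Median differences were 8.77 points on 0 mg and 7.06 on 8 mg. First-cohort epithelium was higher than second-cohort epithelium at these sites, by medians of 3.30 points on 0 mg and 3.56 on 8 mg. The medians were 0 over all comparable sites, -0.238 and 2.24 points over those starting at 10 to 30%, and 2.17 and 1.07 points over those at 30 to 70%. The choice favours gaining sites that were low in second-cohort epithelium, so by itself it favours higher values in first-cohort epithelium there. Within the 8 mice with epithelium in both cohorts, the median shift over the gaining sites was 9.51, 1.36 and 0 points in mice 1807, 1809 and 1820 on 0 mg. On 8 mg it was 11.1, 8.31, 6.33 and 4.58 points in mice 1830, 1841, 1848 and 1858, and -4.19 points in mouse 1856, measured from 1856N. The shift thus ranged from none to 11.1 points in mice other than 1856. The choice also used the second-cohort epithelium of these mice, so it favours an upward shift in them. The part of the choice in these shifts was not tested.

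The cohorts carried different correction factors, and on raw percents the mean over the same sites was lower in the first cohort in 7 of these 8 mice, mouse 1841 being the exception. With raw percents 270 of 291 gaining sites (92.8%) were at least 5 points above on both diets, beside 8.02% of comparable sites. Cohort cannot be told apart from tissue here, since all polyps were in the second cohort.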

How the data were processed

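Read counts and methylation percents of 43 libraries were used as deposited. Per the labels the authors mapped reads with Bowtie2 and SAMtools to mm9 (the study's methods name the human genome). They deposited counts of methylated and unmethylated reads per CCCGGG site, the raw percent, and a percent adjusted with spiked standards. The reference given here is another build, so no site was assigned to a gene and no sequence is printed.

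Group means of the adjusted percent, and two-sided equal-variance tests per site, were computed with Python 3.11.15, numpy 2.4.6, pandas 2.3.3 and scipy 1.17.1. limma 3.58.1 (R 4.3.3) gave moderated tests. The coverage minimum was 20 reads. Exact permutation tests were two-sided. Adjusted p values are Benjamini-Hochberg values over all tested sites. Scripts were tested on simulated data. The sites and lists were chosen with earlier results of these data known. Named sites were the 10 largest by the smaller of both gains, those of the 3 largest runs, the 5 with the smallest p per first-cohort comparison among called sites, 3 on each side of the criterion, and the 3 highest and 3 lowest starting levels.

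Polyps and epithelium of the second cohort came from the same mice per the labels. Deviations from group means of same-mouse libraries correlated with a mean r of 0.00637 on 0 mg and 0.0512 on 8 mg. On raw counts, which still hold the factor of each library, replicate libraries differed by more than sampling noise in every pair. The part of the factors in this was not tested, and each library was 1 sample. Read counts from PCR products are not independent molecules.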

Additional observations from a re-analysis of the deposited data

Results flagged for a closer look

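Within groups of 4 to 10 libraries, 12 of 81 groups of values tested (library means over the gaining sites, and the leading sites) had a library far from the others by Dixon's criterion. Chance gives about 1 in 20. Several of these sites share libraries, and the criterion is sensitive to tight groups.

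In the first cohort 8ND library LC1844 had the lowest mean over the gaining sites it covered, 25.2%, against 37.8% in the highest 8ND library. At chromosome 8, position 117229497, the library labelled 1856N had 97.44% among 8ND and lesion 1807 had 58.96% among 0P. At chromosome 2, position 166181508, 1856N had 76.79%. At chromosome 18, position 58029600, the lesion labelled 1856P had 96.95% in 8P, and mouse 1820 had 33.38% in 0ND and mouse LC1832 40.22% in 2ND of the first cohort. At chromosome 6, position 32347115, 0ND of mouse 1805 had 9.08% and the lesion labelled 1856P2 had 67.11%. At chromosome 6, position 108700282, lesion 1807 had 93.8% in 0P and lesion 1800 had 97.94% in 8P, both in groups where the other lesions were nearer 100%. At chromosome 2, position 167208486, 0P lesion 1805 had 93.93%.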

How the results depend on the processing

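Of 133 settings run for the main results, 115 were scored as unchanged and 18 were not. Counts were scored as unchanged within 1.5 times the value reported, and medians within 1 SD of it. The number of gaining sites was 162 with at least 50 reads, 134 when every library was required, 118 at 10 points, and 245 to 341 when leaving out single libraries, the lowest without 8ND library 1841. It was 296 with the mouse as replicate block, 274 of them shared, and 399 after centring, with all 326 shared. The block changed no other count by over 1.5 times but that of sites above in every lesion, given below. First-cohort calls at gaining sites in 8ND against 0ND were 63 by the quasi-binomial model, beside 6.004% of all tested sites, and 0 with adjusted p. They were 19 with raw percents, beside 3.40% of all tested sites, and 20 to 39 without single libraries. In 2ND against 0ND they were 38 by the quasi-binomial model, beside 5.36% of all tested sites, and 0 with adjusted p. With raw percents they were 14 (13 higher and 1 lower), beside 1.00% of all tested sites, and without single libraries 13 to 25. In 8ND against 2ND they were 0 with adjusted p and 18 to 38 without single libraries, and the quasi-binomial model gave 11 higher and 18 lower and raw percents 0 higher and 42 lower. For the ranges without single libraries the share of all tested sites is not reported here, so they show only how far the counts moved. Gaining sites with at least 3 listed sites close by were 21 within 500 bases and 92 within 2000. Sites above epithelium in every covered lesion were 18, and 4 when each lesion was paired with its own mouse's epithelium. Polyps were 5 points above first-cohort epithelium on both diets at 270 sites with raw percents and at 114 to 130 without single libraries. The causes were not tested.

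For single named sites, 512 of 521 settings were scored as unchanged, and 4 first-cohort sites lost their call with raw percents. Gains counted as unchanged when they kept direction and moved by less than the mean SD of the 4 second-cohort groups. First-cohort differences counted as unchanged when they kept direction and were still called. Whether a gain crossed the 5-point criterion was not scored. When epithelium libraries were kept only if their 100 most-read sites took less than 8% of reads, the smaller gain became -0.383 at chromosome 2, position 30707713, and -1.88 at chromosome 19, position 41370927 (the latter just outside the criterion). Restricting by read concentration, centring of single sites and leaving out the library labelled 1856N from lists were added after seeing the data. Depth limits single values: 20 reads resolve steps of 5 points.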
